A study of Mus musculus with 68 samples.

Results

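The genes described here are 29 genes of cholesterol synthesis and its control, found by symbol among the 56748 entries of a gene count table from mouse organs. They are 20 enzymes of the pathway, 5 genes of the SREBP system that controls it, the sterol carrier Stard4, and 3 targets of the sterol-sensing receptor LXR. The study asked whether organs differ in their answer to Egf, the epidermal growth factor, which binds the receptor Egfr. Wild-type female C57BL/6J mice, 10 weeks old and carrying no engineered allele, received Egf at 1 mg/kg in phosphate-buffered saline, or the saline alone as vehicle, by injection behind the eye under isoflurane. Heart, lung, kidney and liver were collected 2 h or 6 h later, which gave 4 Egf and 3 vehicle libraries per organ and time. For each organ 3 libraries came from untreated mice, so that 68 libraries fell into 20 groups. The RNA came from whole organs, so fewer cells of a type and less RNA per cell cannot be told apart. The labels do not say which libraries came from the same animal, and p-values measure the spread between these libraries.

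Cholesterol is built from acetyl-CoA by way of mevalonate, isoprenoids, squalene and lanosterol, and the liver is a main site of this synthesis in the body. The enzyme genes are switched on by the transcription factor SREBP2 (gene Srebf2), while SREBP1 (Srebf1) acts more on genes of fatty acid synthesis. When sterols are low, the escort protein Scap carries the SREBP precursors from the endoplasmic reticulum to the Golgi, where proteases free the active factor. When sterols are high, Insig1 or Insig2 holds Scap back, and oxysterols activate LXR, which raises the exporters Abca1 and Abcg1 and the ubiquitin ligase Mylip.

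Proximal promoters are shown for 4 of the 5 genes that rose in the liver after Egf and for Hmgcs1, which makes HMG-CoA ahead of mevalonate. Stard4, which rose too, had no entry in the promoter table. Each holds at least 1 CCAAT box. The sterol regulatory element core TCACNCCAC was found in Hmgcs1 and in none of the 4 other promoters shown. Only exact matches to these letters were sought, so their absence does not show that a gene lacks a sterol regulatory element. The runs are the 250 bases before each transcription start, 5′ to 3′ on the gene's strand, from RefSeq on GRCm38.p6. That build is older than the mm39 build of the count table, so these coordinates apply to GRCm38.p6 alone. Capitals mark CCAAT boxes on either strand (CCAAT or ATTGG) and the sterol regulatory element core TCACNCCAC.
Insig1 (chr5:28071162-28071411, plus strand): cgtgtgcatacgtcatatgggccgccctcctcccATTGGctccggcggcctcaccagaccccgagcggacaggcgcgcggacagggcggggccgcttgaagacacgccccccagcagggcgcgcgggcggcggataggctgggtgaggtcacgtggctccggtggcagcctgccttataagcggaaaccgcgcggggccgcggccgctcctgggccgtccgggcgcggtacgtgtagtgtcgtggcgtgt
Hsd17b7 (chr1:169969206-169969455, minus strand): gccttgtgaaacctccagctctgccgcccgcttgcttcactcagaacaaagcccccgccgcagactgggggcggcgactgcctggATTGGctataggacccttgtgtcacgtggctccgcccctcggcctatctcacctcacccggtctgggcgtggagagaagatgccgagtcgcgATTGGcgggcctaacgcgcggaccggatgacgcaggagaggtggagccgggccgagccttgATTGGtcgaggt
Msmo1 (chr8:64733579-64733828, minus strand): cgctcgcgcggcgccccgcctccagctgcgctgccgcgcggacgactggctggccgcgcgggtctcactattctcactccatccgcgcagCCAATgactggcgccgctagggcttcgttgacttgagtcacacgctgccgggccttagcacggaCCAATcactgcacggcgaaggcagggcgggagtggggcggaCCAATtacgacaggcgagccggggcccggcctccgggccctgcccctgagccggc
Mvd (chr8:122443423-122443672, minus strand): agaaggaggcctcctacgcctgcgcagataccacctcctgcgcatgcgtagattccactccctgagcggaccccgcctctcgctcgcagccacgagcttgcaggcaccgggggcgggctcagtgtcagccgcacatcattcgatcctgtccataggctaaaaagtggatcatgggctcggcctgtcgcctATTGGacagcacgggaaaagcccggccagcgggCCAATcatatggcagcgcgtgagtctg
Hmgcs1 (chr13:119690101-119690350, plus strand): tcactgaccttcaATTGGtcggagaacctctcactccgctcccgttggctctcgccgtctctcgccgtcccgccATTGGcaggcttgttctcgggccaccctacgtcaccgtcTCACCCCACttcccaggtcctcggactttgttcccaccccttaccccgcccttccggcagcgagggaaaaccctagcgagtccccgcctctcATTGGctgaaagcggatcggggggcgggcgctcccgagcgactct
Of the 29 genes, 24 had an entry in the RefSeq promoter table, which covers 300 bases around the start. A CCAAT box, the element bound by NF-Y, was present on either strand in 21 of these 24 genes, against 41.1% of all 27025 genes in the table. The GC box GGGCGG, the element bound by Sp1, was present on either strand in 22 of the 24, against 38.2%. The E-box CACGTG was found in 6 of the 24, against 8.09%. TCACNCCAC was found on either strand in 1 of the 24, Hmgcs1, against 1.44%. These shares describe letters in a fixed window and do not show binding.

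Library totals ran from 13271813 to 24972005 reads assigned to genes, with a median of 17759346.5. Values are given in CPM, a gene's read count scaled to a common library size within the organ, and differences as log2 ratios with a standard error (SE). The SE was worked out as the absolute log2 ratio over the square root of the F statistic of edgeR's test. It is thus not a separate estimate from the p-value. A gene was called when its p-value from edgeR's quasi-likelihood test, adjusted by the Benjamini-Hochberg method over all genes tested in that organ, was below 0.05. Counts of genes at an unadjusted p below 0.05 are also given. The share of all genes at that unadjusted threshold was not worked out, so those counts cannot be set against it. All 29 genes passed the filter on low counts in heart, lung and liver, and 28 passed in kidney, where Fdps was left out at 1 to 10 reads per library. The markers of each organ were high in its own libraries, for example the summed hepatocyte markers at 99703 to 133655 CPM in liver. However, 8 libraries, 7 of heart and 1 of lung, also carried more than 500 CPM of another organ's markers at more than 10 times the organ's median. Fdps and Tm7sf2 overlap a protein-coding neighbour on the same strand, over 7512 of 8372 bases in Fdps and 532 of 5553 in Tm7sf2. Their counts may hold reads of the neighbour or lack reads shared with it, since the counting options are not given. Ggps1, Fdft1, Cyp51, Lbr and Srebf1 overlap a protein-coding gene on the opposite strand that the libraries, which do not mark strand, cannot separate.

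In the liver 2 h after Egf, 5 of the 29 genes were called and all 5 were higher than after vehicle. They were Insig1, the sterol sensor that holds Scap back, Mvd, which makes isopentenyl diphosphate, Msmo1 and Hsd17b7, which act on the ring demethylations between lanosterol and cholesterol, and Stard4, which carries sterol between membranes. Of all 13592 genes tested, 3.92% were called in this comparison and 1.95% were called higher. The log2 ratio was above 0 for 23 of the 29 genes, against 47.4% of all genes tested, and its median was 0.32, against -0.02 over all genes. In 5 of the 29 genes every Egf library lay above every vehicle library, which held for 7.04% of all genes.

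Insig1 (ENSMUSG00000045294, mm39 chr5:28276361-28283660, plus strand) measured 1263, 537, 930 and 1133 CPM after Egf and 340, 295 and 400 CPM after vehicle at 2 h. Every Egf library exceeded every vehicle library, and Egf replicate 2 was the lowest of its group. The means were 966 ± 317 CPM (SD, n = 4) and 345 ± 52.4 CPM (SD, n = 3), and the log2 ratio was 1.48 ± 0.25 (SE, edgeR adjusted p = 0.00125). Hsd17b7 (ENSMUSG00000026675, mm39 chr1:169777104-169796810, minus strand) measured 399, 198, 471 and 578 CPM after Egf and 132, 96.1 and 162 CPM after vehicle. These groups did not overlap either, and its log2 ratio was 1.66 ± 0.29 (SE, edgeR adjusted p = 0.00197).

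Msmo1 (ENSMUSG00000031604, mm39 chr8:65171173-65186826, minus strand) measured 923, 418, 971 and 989 CPM after Egf and 299, 256 and 384 CPM after vehicle. Egf replicate 2 stood well below the other 3 Egf libraries but above all vehicle libraries, and the log2 ratio was 1.40 ± 0.27 (SE, edgeR adjusted p = 0.00417). Stard4 (ENSMUSG00000024378, mm39 chr18:33332408-33346915, minus strand) measured 353, 223, 318 and 391 CPM after Egf and 180, 139 and 168 CPM after vehicle. Its groups did not overlap, and its log2 ratio of 0.98 ± 0.18 (SE, edgeR adjusted p = 0.00273) was the smallest of the 5. Mvd (ENSMUSG00000006517, mm39 chr8:123160340-123170161, minus strand) measured 101, 39.5, 136 and 125 CPM after Egf and 32.5, 14.5 and 29.1 CPM after vehicle. It had the largest ratio of the 29 genes, 1.98 ± 0.45 on the log2 scale (SE, edgeR adjusted p = 0.0161), and its lowest Egf library lay just above its highest vehicle library.

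**Figure D1:**
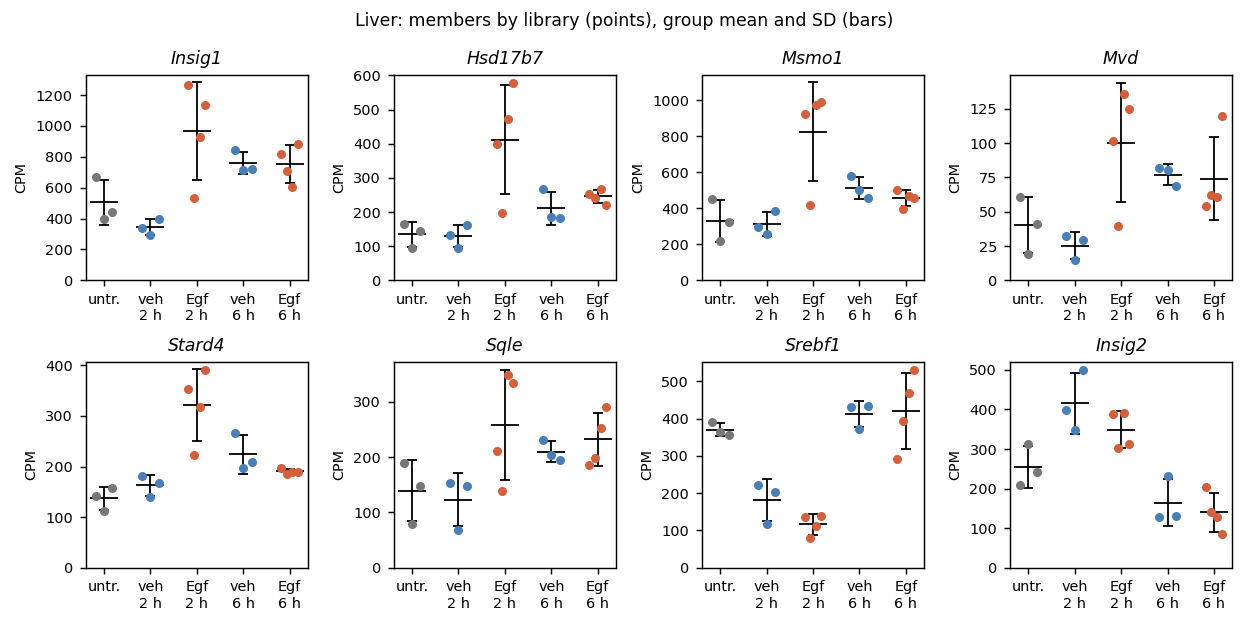
CPM in each liver library for Insig1, Hsd17b7, Msmo1, Mvd, Stard4, Sqle, Srebf1 and Insig2, by group: untreated, vehicle 2 h, Egf 2 h, vehicle 6 h and Egf 6 h. Points are libraries and bars are the mean and SD of 4 Egf or 3 other libraries; at 2 h the Egf points of the first 5 genes lie above all vehicle points, and at 6 h the groups of those 5 genes overlap.

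The other members of the pathway did not pass edgeR's test in the liver at 2 h, although Sqle and Lbr passed under some other settings. All 8 genes of the mevalonate and isoprenoid steps had a log2 ratio above 0, with a median of 0.42, as did the 3 genes from squalene to lanosterol, with a median of 0.53. Sqle, the squalene epoxidase, measured 211, 139, 348 and 333 CPM after Egf and 152, 67.3 and 148 CPM after vehicle, with a log2 ratio of 1.07 ± 0.34 (SE, edgeR adjusted p = 0.0972). Hmgcs1 measured 480, 248, 904 and 995 CPM after Egf and 363, 182 and 461 CPM after vehicle, so its groups overlapped at a log2 ratio of 0.97 ± 0.46 (SE, edgeR adjusted p = 0.339). Idi1, the isomerase after Mvd, measured 425, 139, 361 and 370 CPM after Egf and 187, 154 and 210 CPM after vehicle, with a log2 ratio of 0.82 ± 0.33 (SE, edgeR adjusted p = 0.236). In Sqle and Hmgcs1 it was Egf replicate 2 that lay within the vehicle range, and in Idi1 Egf replicate 2 lay below every vehicle library. Among the 9 genes from lanosterol to cholesterol, Lbr, which also anchors the nuclear lamina, had a log2 ratio of 0.67 ± 0.20 (SE, edgeR adjusted p = 0.0831), and Sc5d and Ebp were at -0.03 and -0.14.

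Of the 5 genes of the SREBP system, Insig1 was the 1 called in the liver at 2 h. For the others the log2 ratios were 0.32 ± 0.19 for Srebf2, -0.03 for Scap, -0.25 ± 0.25 for Insig2 and -0.63 ± 0.23 for Srebf1 (SE). Srebf1 measured 136, 79.6, 111 and 140 CPM after Egf and 222, 117 and 204 CPM after vehicle, so that the groups overlapped through vehicle replicate 2 (edgeR adjusted p = 0.146). Srebf2 measured 93.9, 73.5, 124 and 103 CPM after Egf and 86.8, 61.0 and 88.5 CPM after vehicle (edgeR adjusted p = 0.486). The LXR targets had log2 ratios of 0.15 for Abca1, 0.03 for Abcg1 and -0.39 for Mylip, and were not called. Abca1 measured 90, 66.4, 126 and 119 CPM after Egf and 99.1, 77.3 and 94.9 CPM after vehicle, and Mylip 9.12, 8.18, 9.95 and 6.66 CPM after Egf and 11.6, 7.61 and 14.2 CPM after vehicle, with overlap in both.

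Replicate 2 was the lowest library of its group in the liver for 24 of the 29 genes after Egf at 2 h and for 25 after vehicle at 2 h. The summed level of the 20 enzymes ran from 3141 to 6750 CPM in the Egf libraries and from 2948 to 3950 CPM in the vehicle libraries at 2 h, and it overlapped between them. Without Egf replicate 2, the 5 genes were joined by Sqle (1.28, adjusted p = 0.0330), Lbr (0.80, adjusted p = 0.0351) and Idi1 (1.07, adjusted p = 0.0406), which made 8 by edgeR. Over all settings the adjusted p of these 3 reached 0.285, 0.341 and 0.502. Mvd lost its call without vehicle replicate 2 (adjusted p = 0.0581) and without vehicle replicate 3 (adjusted p = 0.0507), and also without a filter on low counts (adjusted p = 0.0747), within a range of 2.27e-05 to 0.114 over all settings. Srebf1 was called lower without vehicle replicate 2 (-0.85, edgeR adjusted p = 0.0404 in a range of 0.0321 to 0.564), and Lbr higher without vehicle replicate 3 (0.94, edgeR adjusted p = 0.0236). With only the groups compared in the edgeR fit, 3 genes remained called, since Hsd17b7 (adjusted p = 0.0626, range 2.4e-07 to 0.0626) and Mvd did not pass. DESeq2 called 7 genes, the 5 with Sqle (1.09, adjusted p = 0.0172) and Lbr (0.69, adjusted p = 0.0279), and edgeR without a filter on low counts called Lbr (adjusted p = 0.0483). With the replicate number as a block 7 genes were called by edgeR, the 5 above with Sqle higher (0.95) and Srebf1 lower (-0.73). The share of all genes called under each of these settings is not given here, so their counts cannot be set against it.

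Other cell types were present at low levels in these liver libraries. The 6 neutrophil markers summed to 2.21 to 8.01 CPM after Egf and 0.712 to 1.96 CPM after vehicle at 2 h. The 7 hepatocyte markers summed to 99703 to 133403 CPM and 113053 to 122004 CPM, and edgeR called none of the marker genes in this comparison. Egf replicate 1 carried 180 CPM of adrenal cortex markers, against 0.658 to 2.15 CPM in the other 3 Egf libraries. With these markers as a covariate, an alternative chosen after seeing the data, the same count of 5 genes was called by edgeR.

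At 6 h after Egf the liver showed no called member by edgeR, with 0.0883% of all genes called. At an unadjusted p below 0.05 there were 2 members, Lss (1.10 ± 0.46) and Scap (-0.41 ± 0.15), and DESeq2 also called 0. Insig1 measured 815, 707, 607 and 884 CPM after Egf and 843, 715 and 724 CPM after vehicle at 6 h, a log2 ratio of -0.01 ± 0.24 (SE). Its groups overlapped, and all of these libraries lay above the vehicle libraries of 2 h. Msmo1 measured 504, 398, 469 and 459 CPM after Egf and 582, 500 and 458 CPM after vehicle, a log2 ratio of -0.17 ± 0.26 (SE). The log2 ratios of Hsd17b7, Stard4 and Mvd at 6 h were 0.22 ± 0.28, -0.24 ± 0.17 and -0.05 ± 0.41 (SE), and the median of the 29 genes was 0.09, against 0.01 over all genes tested.

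An interaction term tested whether the liver's log2 ratio of Egf to vehicle changed between the times, and it called 3 members, each with a smaller ratio at 6 h. The term holds the change of the vehicle level as well as that of the Egf level. In vehicle livers Insig1, Msmo1, Stard4 and Mvd all measured higher at 6 h than at 2 h. It called 1.03% of all genes, 0.456% with a smaller ratio at 6 h. The difference of the log2 ratios was -1.22 ± 0.25 for Stard4 (SE, edgeR adjusted p = 0.016), -1.498 ± 0.337 for Insig1 (SE, edgeR adjusted p = 0.0339) and -1.56 ± 0.37 for Msmo1 (SE, edgeR adjusted p = 0.0463). For Hsd17b7 it was -1.45 ± 0.39 (SE, edgeR adjusted p = 0.0883) and for Mvd -2.04 ± 0.60 (SE, edgeR adjusted p = 0.126), and neither was called. Stard4 kept its call in 13 of 14 fits that each left out 1 library, and lost it without vehicle 6 h replicate 1 (adjusted p = 0.0713, range 0.0044 to 0.0713). Insig1 and Msmo1 kept theirs without Egf 2 h replicate 2 or Egf 6 h replicate 1, and Insig1 also without Egf 6 h replicate 4. Without any 1 of the other libraries they were not called, with adjusted p up to 0.0981 for Insig1 and 0.126 for Msmo1. Msmo1 also lost its call without a filter on low counts (adjusted p = 0.0673) and with adrenal markers as a covariate (adjusted p = 0.0710). The count of called members ran from 0 without vehicle 6 h replicate 1 to 5 without Egf 2 h replicate 2, and with the replicate number as a block it was 5 by edgeR.

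The vehicle libraries of the liver themselves differed between 2 h and 6 h in 3 of the 29 genes, where 1.55% of all genes were called. Srebf1 (ENSMUSG00000020538, mm39 chr11:60089915-60113407, minus strand) measured 222, 117 and 204 CPM at 2 h and 433, 373 and 434 CPM at 6 h, a log2 ratio of 1.19 ± 0.25 (SE, edgeR adjusted p = 0.0161). Insig1 measured 340, 295 and 400 CPM at 2 h and 843, 715 and 724 CPM at 6 h, a log2 ratio of 1.14 ± 0.26 (SE, edgeR adjusted p = 0.0276). Insig2 (ENSMUSG00000003721, mm39 chr1:121232082-121260318, minus strand), the partner of Insig1 that is known in the liver for a transcript lowered by insulin, measured 400, 349 and 500 CPM at 2 h and 129, 233 and 130 CPM at 6 h. Its log2 ratio was -1.34 ± 0.28 (SE, edgeR adjusted p = 0.0161), and in all 3 genes the groups did not overlap. Mvd measured 32.5, 14.5 and 29.1 CPM at 2 h and 82.2, 80.3 and 68.6 CPM at 6 h, and was not called at a log2 ratio of 1.60 ± 0.46 (SE, edgeR adjusted p = 0.1003). Mvd was called with DESeq2 (adjusted p = 0.00645), with only the groups compared (adjusted p = 0.0133) and with the replicate number as a block (adjusted p = 0.0358), in a range of 0.00645 to 0.294 over all settings.

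The calls between the vehicle times in the liver changed when single libraries were left out. Insig1 lost its call without any 1 of the 6 libraries (edgeR adjusted p from 0.0551 to 0.129). Srebf1 lost it without vehicle 2 h replicate 2 (0.0762), vehicle 2 h replicate 3 (0.0512) or vehicle 6 h replicate 1 (0.0783), and Insig2 without vehicle 2 h replicate 3 (0.0855), vehicle 6 h replicate 1 (0.111) or vehicle 6 h replicate 3 (0.0791), all edgeR adjusted p. The count ran from 0 to 2 when 1 library was left out. Vehicle 2 h replicate 2 held 0.0126% of its reads in rRNA genes, against 1.51% to 3.47% in the other liver libraries, and the part of this in the results was not tested.

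Untreated livers help to place these levels, and the vehicle comparisons share their vehicle libraries with the Egf comparisons. Srebf1 measured 391, 365 and 357 CPM in untreated livers, above every library of either 2 h group. Against untreated livers, 0 members were called in the vehicle livers at 2 h by edgeR (0.155% of all genes were), although 6 had an unadjusted p below 0.05. The log2 ratios of that comparison ran from -0.67 to 0.52 in the 8 genes of the mevalonate and isoprenoid steps, which include Mvd. In the 9 genes from lanosterol to cholesterol, which include Msmo1 and Hsd17b7, they ran from -0.20 to 0.80. The log2 ratio of Srebf1 there was -1.04 ± 0.24 (SE, edgeR adjusted p = 0.123), and DESeq2 called it as its 1 member (adjusted p = 0.00892, range over all settings 0.00892 to 0.450). In the vehicle livers at 6 h, 0 members were called against untreated (0.67% of all genes were), with 8 at an unadjusted p below 0.05 and 1 called by DESeq2. That gene was Stard4, at 142, 112 and 157 CPM in untreated livers and 267, 196 and 208 CPM after vehicle, with a log2 ratio of 0.71 ± 0.19 (SE, edgeR adjusted p = 0.103).

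In heart, lung and kidney 0 members were called after Egf by edgeR at either time. The background was low too, with 0.211% of all genes called in heart at 2 h, 0.0128% in heart at 6 h, 0.84% in lung at 2 h, 0% in lung at 6 h, 0.256% in kidney at 2 h and 0% in kidney at 6 h. The members with an unadjusted p below 0.05 numbered 0 and 4 in heart, 5 and 5 in lung, and 6 and 3 in kidney, at 2 h and 6 h. Without the share of all genes at that threshold, these counts are not read as a result about the members. DESeq2 called 1 member, Stard4 in kidney at 2 h, and 0 in the other 5 comparisons. The median log2 ratio of the members at 2 h was 0.10 in heart (range -0.42 to 1.27), 0.11 in lung (-0.76 to 0.72) and 0.08 in kidney (-0.42 to 0.43). At 6 h it was 0.39 in heart (-0.42 to 1.32) and -0.04 in kidney (-0.32 to 0.72), and in heart 24 of the 29 ratios were above 0, against 52.5% of all genes. The same interaction term called, by edgeR, 0 members in heart (0.0128% of all genes), in lung (0.0417%) and in kidney (0.0192%), with 0, 2 and 5 members at an unadjusted p below 0.05 and 0 called by DESeq2 in each.

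**Figure D2:**
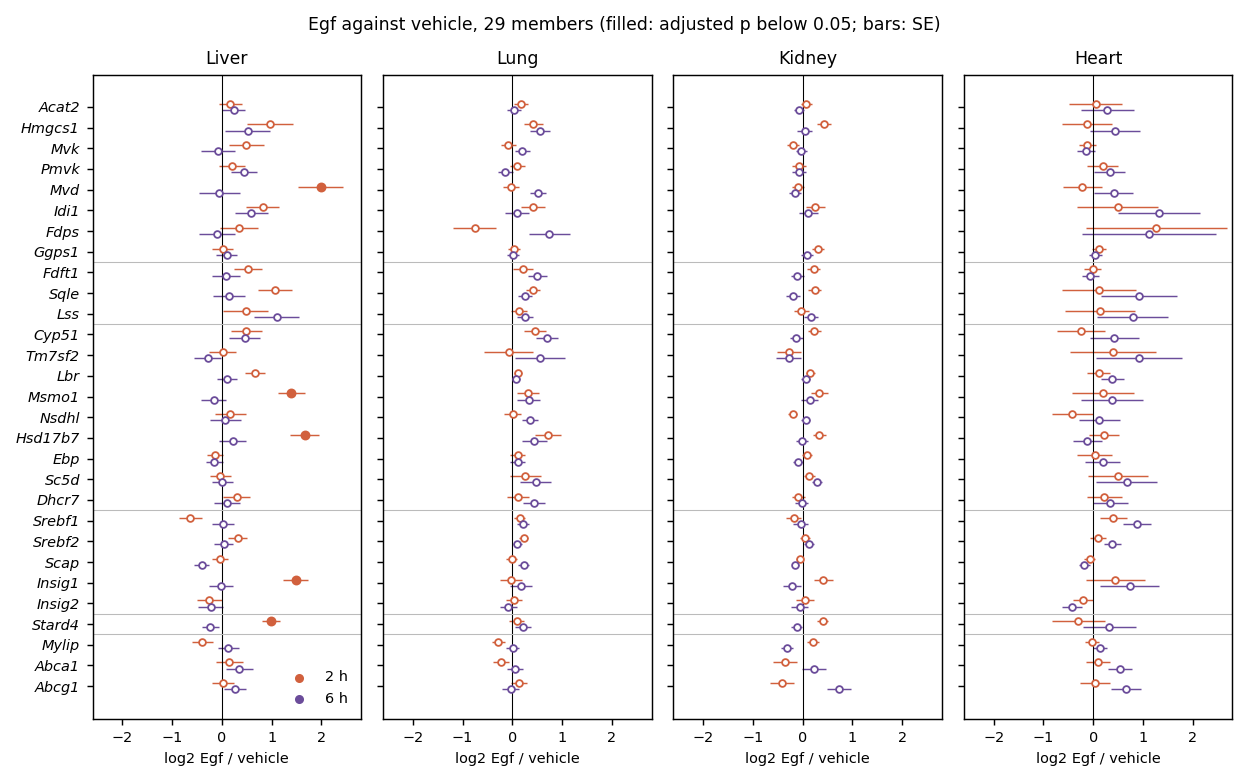
Log2 ratio of Egf to vehicle with its SE for the 29 genes in each organ, at 2 h in orange and at 6 h in purple, with the genes grouped by role. Filled points have an edgeR adjusted p below 0.05; the 5 filled points are Mvd, Msmo1, Hsd17b7, Insig1 and Stard4 in the liver at 2 h.

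In the kidney at 2 h, Stard4 measured 145, 134, 171 and 186 CPM after Egf and 107, 118 and 135 CPM after vehicle. The lowest Egf library lay just under the highest vehicle library, and its log2 ratio was 0.40 ± 0.11 (SE, edgeR adjusted p = 0.183, and 0.0488 with DESeq2 in a range of 0.0488 to 0.977 over all settings). Hmgcs1 measured 400.4, 401, 255 and 328 CPM after Egf and 288, 209 and 274 CPM after vehicle, at a log2 ratio of 0.43 ± 0.14 (SE, edgeR adjusted p = 0.363). Insig1 measured 54.9, 42.9, 77.2 and 82.7 CPM after Egf and 54.1, 46.0 and 45.1 CPM after vehicle, with replicates 3 and 4 the highest. The adrenal cortex markers of these Egf libraries were 22.7, 2.04, 62.9 and 23.6 CPM, against 1.52 to 2.32 CPM after vehicle. A fit with these markers as a covariate called 0 members, as did the edgeR fit without them. Its count therefore cannot show the part of the adrenal markers in the values, which was not tested.

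In the lung at 2 h, 6 of the 29 genes had every Egf library above every vehicle library, against 5.65% of all genes, and 1 had every Egf library below, against 3.96%. Sqle measured 102, 74.2, 83.4 and 105 CPM after Egf and 65.3, 67.8 and 70.9 CPM after vehicle, a log2 ratio of 0.43 ± 0.14 (SE, edgeR adjusted p = 0.267). Srebf2, the factor itself, measured 309, 295, 324 and 288 CPM after Egf and 277, 259 and 240 CPM after vehicle, a log2 ratio of 0.23 ± 0.09 (SE, edgeR adjusted p = 0.396). Both were without overlap and neither passed the test. Hsd17b7 had the largest ratio of the lung at 2 h among those with an unadjusted p below 0.05, 0.72 ± 0.26 (SE, edgeR adjusted p = 0.337), with 53.4, 39.8, 33.5 and 63.8 CPM after Egf and 26.1, 27.1 and 33.7 CPM after vehicle. Hepatocyte markers, which come from another organ, were higher in the same Egf libraries, at 391 to 3373 CPM against 6.01 to 574 CPM after vehicle, and neutrophil markers were at 110 to 244 CPM against 67.2 to 108 CPM. A fit with the hepatocyte markers as a covariate called 0 members, as did the edgeR fit without them. Its count therefore cannot show the part of the hepatocyte markers in these values. The part of neither marker set was tested.

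In the lung at 6 h the log2 ratio was above 0 for 26 of the 29 genes, against 50.5% of all genes, and its median was 0.22, against 0.00 over all genes. Mvd measured 20.1, 17.3, 27.9 and 29.6 CPM after Egf and 16.8, 16.1 and 16.9 CPM after vehicle, a log2 ratio of 0.51 ± 0.16 (SE, edgeR adjusted p = 0.894). Cyp51, the lanosterol demethylase, measured 57.3, 59.2, 124 and 88.5 CPM after Egf and 46.0, 52.5 and 53.5 CPM after vehicle, a log2 ratio of 0.70 ± 0.23 that did not pass either. Egf replicate 3 of this group held 26188 CPM of hepatocyte markers, and it was the highest library of its group for 18 of the 29 genes. This was the lung library that met the rule for carrying another organ's markers, and without it 0 members were called in the lung at either time. With it 0 were called too, so that count cannot show its part in the values, which was not tested. No 2 h lung library met that rule, so the fit without this library did not test the hepatocyte markers of the 2 h libraries.

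Heart values moved with the hepatocyte markers too. The 4 heart libraries with most of these markers were untreated replicates 1 and 3, with 15436 and 13337 CPM, Egf 6 h replicate 3 with 13820 CPM and Egf 2 h replicate 3 with 8973 CPM, and 21 of the 29 genes had their highest heart level in 1 of these 4. Insig1 measured 23.7, 27.6, 60.7 and 21.9 CPM after Egf at 2 h, 18.1, 45.4, 90.6 and 18.8 CPM after Egf at 6 h, and 77.7, 21.7 and 69.9 CPM in untreated hearts. The high values are those of the libraries just named, with Egf 6 h replicate 2 (5753 CPM of hepatocyte markers) next. Kidney tubule markers were high in vehicle 2 h replicate 1 (2980 CPM), untreated replicate 2 (1119), vehicle 6 h replicate 2 (777) and Egf 6 h replicate 1 (712). These libraries were the highest of their group for 19, 2, 9 and 2 of the 29 genes, in that order. The part of kidney RNA in the heart values was not tested. Ggps1, which makes the geranylgeranyl donor used on proteins, stayed between 15.3 and 22.9 CPM in all 17 heart libraries. Srebf1 had the smallest unadjusted p of the 29 genes in the heart at 6 h, with 48.8, 66.8, 78.8 and 56.4 CPM after Egf and 44, 25.7 and 32.6 CPM after vehicle, at a log2 ratio of 0.88 ± 0.28 (SE, edgeR adjusted p = 0.466). Its groups did not overlap, as for 4 of the 29 genes there, against 4.4% of all genes. Leaving out Egf 2 h replicate 3 alone, or Egf 6 h replicate 3 alone, also gave 0 called members in the heart at that time. A fit with hepatocyte markers as a covariate called 0 members after Egf in the heart at either time. The fit of all heart libraries without a covariate called 0 too, so these counts cannot show the part of hepatocyte RNA. That part in the values of single genes was not tested.

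**Figure D3:**
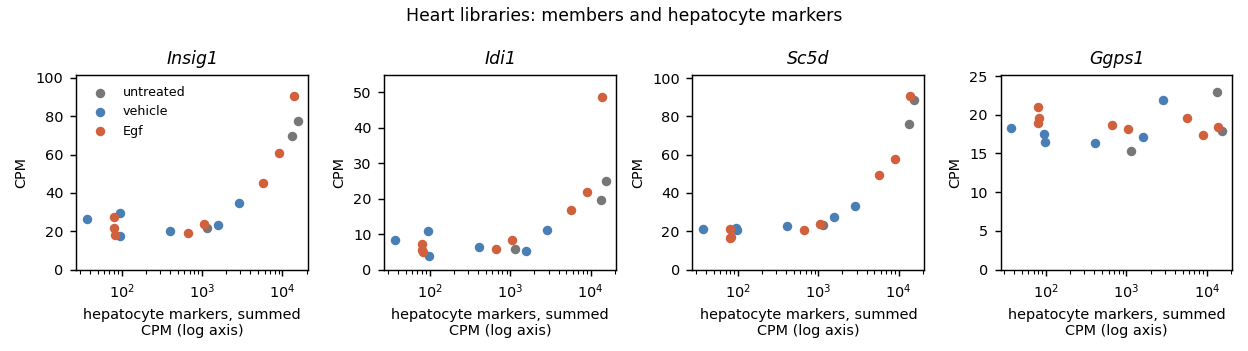
CPM of Insig1, Idi1, Sc5d and Ggps1 in each of the 17 heart libraries against the summed hepatocyte markers of that library, on a log axis. The libraries with most hepatocyte markers have the highest Insig1, Idi1 and Sc5d, and Ggps1 stays between 15.3 and 22.9 CPM.

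Differences of the Egf effect between the 4 organs were tested in a joint fit of the 68 libraries, which took them as independent. At 2 h they were found for 2 members, Mvd (edgeR adjusted p = 0.00252) and Hsd17b7 (edgeR adjusted p = 0.0416), and for 2.19% of all 18736 genes. The log2 ratios of Mvd in heart, lung, kidney and liver were -0.22 ± 0.39, -0.02 ± 0.16, -0.09 ± 0.12 and 1.98 ± 0.45 (SE). Those of Hsd17b7 were 0.22 ± 0.30, 0.72 ± 0.26, 0.34 ± 0.13 and 1.66 ± 0.29 (SE), positive in all 4 organs and highest in liver. Insig1 was not called by this test (edgeR adjusted p = 0.308), with 0.45 ± 0.60, -0.02 ± 0.22, 0.41 ± 0.19 and 1.48 ± 0.25 (SE), nor was Stard4 (edgeR adjusted p = 0.297), with -0.30 ± 0.53, 0.09 ± 0.15, 0.40 ± 0.11 and 0.98 ± 0.18 (SE). A difference among organs was therefore called for Mvd and Hsd17b7, and not for the other 3 genes that rose in the liver.

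Mvd stayed called in all 28 fits that left out 1 library of the 2 h groups. Hsd17b7 stayed called in 12 of them and was lost without liver Egf replicate 1, 3 or 4, liver vehicle replicate 1 or 2, heart Egf replicate 1, 2 or 4, heart vehicle replicate 1 or 2, lung vehicle replicate 2, kidney Egf replicate 1 or 2, or any 1 kidney vehicle library. The highest of these edgeR adjusted p values was 0.197, without liver vehicle replicate 2. Without heart Egf replicate 3 the test also called Stard4 (adjusted p = 0.0112), and without liver vehicle replicate 2 it called Srebf1 (adjusted p = 0.0445). At 6 h the Egf effect differed among organs for 0 members by edgeR (0.048% of all genes), with 2 at an unadjusted p below 0.05 and 0 by DESeq2.

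In untreated mice the level of every one of the 29 genes differed among the organs by edgeR, as did 90.5% of all genes tested. Levels here are FPKM, the counts scaled by exon length and by library size with TMM factors over all 68 libraries. These factors matter between organs: with library size alone, the median log2 ratio of all genes moved by -1.31 for liver against lung and by -0.88 for liver against kidney. RLE factors gave nearly the TMM levels. With TMM factors the liver had the highest mean level for 24 of the 29 genes, the lung for Ggps1, Lbr, Srebf2 and Abcg1, and the kidney for Mylip. With library size alone the liver was highest for 21, since Acat2, Cyp51 and Mvd were then highest in kidney, and Mylip was highest in lung. The median ratio of the highest organ to the next was 3.99 with TMM factors and 1.90 with library size alone. Against liver, 28 genes differed from heart (61.9% of all genes did), 28 from lung (71%) and 23 from kidney (56.4%). Of the 23, 21 were higher in liver with TMM factors and 17 of 23 with library size alone. Between the other organs, 16 genes differed between heart and lung (66.3%), 16 between heart and kidney (61.7%) and 17 between lung and kidney (63.8%). The direction between those organs turned on the scaling: lung was higher than heart in 9 of 16 called genes with TMM factors and in 20 of 22 with library size alone, and kidney was higher than lung in 11 of 17 and 10 of 21. Kidney was higher than heart in 13 of 16 and 16 of 18. Untreated hearts held 1150 to 15436 CPM of hepatocyte markers, against 5.9 to 46.6 CPM in untreated lung and 140 to 1845 CPM in untreated kidney. The part of these in the heart comparisons was not tested.

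**Figure D4:**
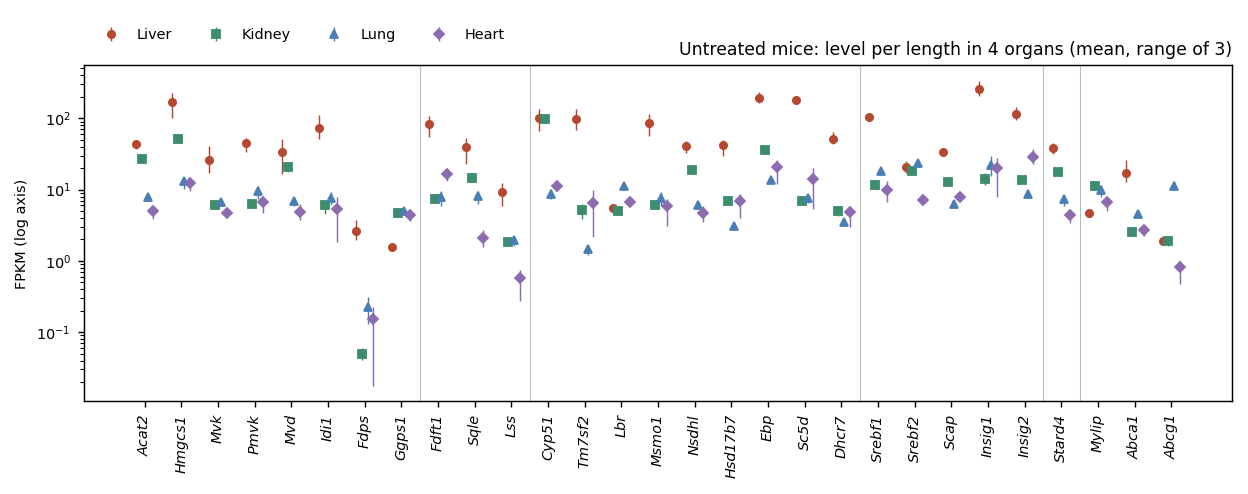
Level of the 29 genes in untreated heart, lung, kidney and liver in FPKM (TMM factors) on a log axis, with the mean as a point and the range of 3 libraries as a line. The liver points lie highest for 24 genes on this scale (21 with library size alone), with Insig1 at 257 FPKM, and the kidney point of Cyp51 lies beside that of the liver, above which it lies with library size alone.

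Insig1 had the highest untreated liver level of the 29 genes, 257 ± 70 FPKM (SD, n = 3), against 22.4 ± 6.9 in lung, 20.2 ± 11 in heart and 14.2 ± 2.8 in kidney. With library size alone it was 167 ± 47.7 FPKM in liver and 36.3 ± 11.02 in lung, so the gap to the next organ was 11.5-fold on the first scale and 4.6-fold on the second. Lung and heart did not differ beyond their spread with TMM factors, and differed by the test with library size alone (edgeR adjusted p = 0.0176). The desaturase gene Sc5d was at 183 ± 17 FPKM in liver, and 14.3 ± 7.9 in heart, where its 3 libraries held 88.8, 23.2 and 76.0 CPM, the low one being the library with least hepatocyte markers. Tm7sf2, a sterol reductase, had the widest gap between the highest organ and the next, 14.99-fold (10.1-fold with library size alone), followed by Sc5d at 12.8-fold (9.33-fold). With TMM factors the next organ was heart for both, and also for Fdft1, Hsd17b7 and Insig2. The untreated hearts held 1150 to 15436 CPM of hepatocyte markers, and the part of these in the heart levels was not tested.

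Kidney came close to liver for part of the pathway. Cyp51 was at 100 ± 34 FPKM in liver and 98.3 ± 5.8 FPKM in kidney (SD, n = 3), a ratio of 1.02, and the pair did not differ by the test. With library size alone it was at 65.02 ± 23 FPKM in liver and 117 ± 4.9 FPKM in kidney, a ratio of 0.554, and it was called lower in liver (edgeR adjusted p = 0.0302). With TMM factors Acat2, Mvd, Lbr, Srebf2 and Abcg1 were not called between kidney and liver either, whereas Lbr, Srebf2 and Abcg1 were called lower in liver with library size alone. Hmgcs1 was at 171 ± 64 FPKM in liver, 51.8 FPKM in kidney and 13.01 and 12.3 FPKM in lung and heart with TMM factors, and 3.29-fold higher in liver than kidney (1.79-fold with library size alone, edgeR adjusted p = 0.0636). On the TMM scale Srebf2 was at 23.3 ± 1.1 FPKM in lung, 20.8 ± 4.2 in liver and 18.4 in kidney, with heart lowest at 7.13, whereas Srebf1 was at 104 ± 3.4 FPKM in liver and at 18.5, 11.5 and 10.0 FPKM in lung, kidney and heart. The exporter Abcg1 had its highest level in lung under both scalings, 11.2 FPKM with TMM factors, where macrophages are known to use it, and at most 1.9 FPKM in the other organs on that scale.

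Comparisons among vehicle and untreated libraries called 1 member in lung and 1 in kidney. In the lung at 2 h, Pmvk (ENSMUSG00000027952, mm39 chr3:89361848-89376320, plus strand), the phosphomevalonate kinase, measured 53.7, 64.3 and 63.5 CPM after vehicle and 19.7, 27.7 and 29.4 CPM in untreated mice. It was the 1 member called there, where 0.0656% of all genes were called, with a log2 ratio of 1.24 ± 0.16 (SE, edgeR adjusted p = 0.00445). The Egf libraries at 2 h lay in the same range as vehicle, at 63.2, 70.8, 65.6 and 59.6 CPM. Without untreated replicate 2, Mylip was called too (-0.63, edgeR adjusted p = 0.0452), which made 2. In the lung at 6 h, 0 members were called against untreated by edgeR (0.101% of all genes), with 3 at an unadjusted p below 0.05 and 1 by DESeq2, Pmvk at 0.61.

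In the kidney, Mylip (ENSMUSG00000038175, mm39 chr13:45543218-45565498, plus strand), the ligase that degrades lipoprotein receptors, measured 38.2, 29.2 and 33.6 CPM in vehicle libraries at 2 h and 63.4, 55.3 and 59.6 CPM at 6 h. It was the 1 member called between these times (0.179% of all genes were), with a log2 ratio of 0.82 ± 0.13 (SE, edgeR adjusted p = 0.0193). Its call was lost, leaving 0, without vehicle 2 h replicate 2 (0.0935), vehicle 2 h replicate 3 (0.0847) or vehicle 6 h replicate 1 (0.116), and with only the groups compared (0.275), over a range of 9.49e-06 to 0.275. The Egf libraries of the kidney at 6 h held 42.9, 45.7, 58.5 and 43.3 CPM of Mylip and the untreated 43.5, 41.2 and 40.8 CPM.

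The other vehicle comparisons called 0 members by edgeR. Against untreated these were heart at 2 h (0.0128% of all genes called, 4 members at an unadjusted p below 0.05), heart at 6 h (0.0192%, 2 members), kidney at 2 h (0.0256%, 7 members) and kidney at 6 h (0.211%, 5 members). DESeq2 called 1 member in heart at 2 h (Abca1, -1.01), 0 in heart at 6 h, 1 in kidney at 2 h (Nsdhl, 0.42) and 1 in kidney at 6 h (Mylip, 0.52). Between the vehicle times, edgeR called 0 in heart (0.0384%, 1 member at an unadjusted p below 0.05) and 0 in lung (0.441%, 4 members), and DESeq2 called 0 in heart and 1 in lung (Pmvk, -0.63). In the heart against untreated, only 2 of the 29 log2 ratios were above 0 at each time, and the untreated hearts held 1150 to 15436 CPM of hepatocyte markers against 36.6 to 96.1 CPM after vehicle at 2 h.

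Genes next to this pathway were read from 4 further lists, of fatty acid synthesis (16 genes), isoprenoid use (13), SREBP processing (13) and handling of sterols (19). In every Egf comparison 0 of their genes were called by edgeR, with 0 to 7 at an unadjusted p below 0.05 and 6 in the liver at 2 h. In the liver at 2 h their median log2 ratios were -0.37 for fatty acid synthesis, 0.03 for isoprenoid use, -0.05 for SREBP processing and 0.06 for sterol handling, against 0.32 for the 29 genes and -0.02 for all genes. Between the vehicle livers of 2 h and 6 h, 2 of their genes rose, Rnf145, a ligase that acts on Scap, by 1.05 ± 0.22 (SE, edgeR adjusted p = 0.0187) and Nceh1, which frees cholesterol from its esters, by 0.92 ± 0.22 (SE, edgeR adjusted p = 0.0383), both on the log2 scale.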

How the data were processed

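RNA was sequenced from 68 whole-organ libraries. The deposited values are counts of reads per gene made by the authors, with HISAT2 2.0.5, featureCounts 1.5.0-p3 and the mm39 build per the submitters' processing notes. For trimming, annotation release and counting options, the sources used here give nothing, and each library ended with 13271813 to 24972005 counted reads. Groups, 4 Egf, 3 vehicle and 3 untreated libraries per organ and time, come from the labels.

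Each organ's 17 libraries were fitted together in edgeR 4.0.16 (limma 3.58.1, R 4.3.3), with genes of low count removed, TMM scaling and a robust quasi-likelihood test. P-values were adjusted over all genes tested, at a threshold of 0.05. CPM and FPKM were computed here from those counts. Organs were compared in 1 fit of all 68 libraries with TMM factors across organs, and untreated levels also by library size alone and RLE factors, added after seeing the data. The steps were tested on simulated data.

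The members and the lists of related and marker genes were chosen with earlier results of these data known. All 29 members are accounted for, and a member is named with its values in each comparison where it was called. Insig1, Hsd17b7, Msmo1, Stard4, Hmgcs1, Sqle, Idi1, Srebf1, Srebf2, Insig2, Mylip and Abca1, and any other member called after Egf, are given by library. From related lists, up to 4 called genes of smallest p are named per comparison. Other members were singled out after their values were seen.

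Alternatives were RLE scaling, no filter on low counts, only the groups compared, DESeq2 1.42.0, the replicate number as a block, leaving out each library in turn, and leaving out libraries that carry another organ's markers. Marker sums were also used as a covariate, of hepatocyte markers in heart, lung and kidney and of adrenal cortex markers in kidney and liver. Within an organ, libraries of the same replicate number deviated together with every correlation above 0.1 only in vehicle 6 h against untreated, in heart (0.295 to 0.614) and lung (0.112 to 0.389). These numbers were therefore not taken to pair samples, and the block is an alternative. The count columns also carry library numbers, each of which marks the same group in every organ. Between organs, same-numbered libraries had median correlations from -0.0563 (lung and kidney) to 0.124 (lung and liver). The joint fits took all libraries as independent, and their block is this library number.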

Additional observations from a re-analysis of the deposited data

Results flagged for a closer look

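Each of the 29 genes was looked at in each of the 8 Egf groups, 232 combinations in all, for a library whose gap to its nearest neighbour, as a share of the range of the 4 libraries, exceeded Dixon's critical value. Chance gives such a gap in about 1 in 20 groups, and 24 combinations had one. The combinations share libraries, so they are not independent of each other.

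Heart Egf 2 h replicate 3 stood high for 11 genes. It measured 55.8 CPM of Hmgcs1 (next highest 22.3), 22.01 of Idi1 (8.21), 0.943 of Fdps (0.138), 19.2 of Sqle (7.01), 24.8 of Tm7sf2 (6.82) and 42.4 of Msmo1 (17.5). It also measured 15.6 CPM of Nsdhl (6.55), 27.9 of Dhcr7 (13.998), 57.6 of Srebf1 (33.1), 60.7 of Insig1 (27.6) and 23.8 of Stard4 (8.89). The same library held 8973 CPM of hepatocyte markers. Lung Egf 6 h replicate 3, with 26188 CPM of hepatocyte markers, stood high for 82.5 CPM of Idi1 (next 53.1), 58.5 of Tm7sf2 (17.2), 100.2 of Ebp (64.4) and 149 of Sc5d (64.1).

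Other libraries stood apart for 1 or 2 genes each. Lbr was high in heart Egf 6 h replicate 4 at 55.6 CPM (next 27.1) and in lung Egf 6 h replicate 2 at 89.8 CPM (83.4). Fdps was high in lung Egf 2 h replicate 1 at 0.993 CPM (0.669) and in kidney Egf 6 h replicate 3 at 0.107 CPM (0.0568), a level of few reads. Insig2 was low in lung Egf 2 h replicate 3 at 44.8 CPM (61.6), and Ebp was high in kidney Egf 2 h replicate 3 at 134 CPM (103). In liver, Egf 6 h replicate 4 was high for Mvd at 119 CPM (62.2) and Abca1 at 175 CPM (93.2), and Egf 2 h replicate 2 was low for Msmo1 at 418 CPM (923).

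The Egf effect in the liver differed between 2 h and 6 h by the interaction term for Msmo1 (-1.56), Insig1 (-1.498) and Stard4 (-1.22), all log2. Among organs it differed at 2 h for Mvd (edgeR adjusted p = 0.00252) and Hsd17b7 (edgeR adjusted p = 0.0416).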

How the results depend on the processing

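The count of members called stayed within 1.5 times its value in every alternative for 13 of 27 comparisons, and in them no direction reversed for a called gene. DESeq2 gave 1 where edgeR gave 0 for Egf in kidney at 2 h, for vehicle against untreated in heart at 2 h, lung at 6 h, kidney at 2 h and 6 h and liver at 2 h and 6 h, and between the vehicle times in lung. DESeq2 gave 5 in place of 3 for the change of the Egf effect in the liver, and 7 in place of 5 for Egf in the liver at 2 h. Without a filter on low counts, vehicle against untreated in liver at 2 h gave 1, and the organ test at 2 h gave 1, as it did with RLE scaling and with only the groups compared. With only the groups compared, Egf in liver at 2 h gave 3 and the vehicle times in kidney gave 0. The share of all genes called under each alternative is not given here, so a higher count may come with more calls over all genes. The cause of these shifts was not tested.

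With the replicate number as a block, vehicle against untreated in liver gave 1 at 2 h (Srebf1) and 1 at 6 h (Stard4), the change of the Egf effect in liver gave 5, and Egf in liver at 2 h gave 7; no other count moved by more than 1.5 times. Numbers are not stated to pair libraries, and the same-number correlations in Egf against vehicle in liver at 2 h were -0.0643 to 0.195.

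When 1 library was left out, the counts ran from 5 to 8 for Egf in liver at 2 h, 0 to 5 for its change, 0 to 2 for the vehicle times in liver, 0 to 1 in kidney, 1 to 2 for vehicle against untreated in lung at 2 h, and 1 to 3 for the organ test at 2 h. Leaving out libraries with another organ's markers gave no value in liver and kidney, which have none, or for comparisons with untreated heart, whose 3 libraries all carry them. The fit with adrenal markers, chosen after seeing the data, gave 2 for the change in the liver (without Msmo1). Spread between libraries, as edgeR's common coefficient of biological variation, ran from 0.192 in kidney and 0.224 in liver to 0.283 in lung and 0.389 in heart, and the SE of the Egf effect at 2 h was widest in heart for Insig1, Msmo1, Stard4 and Hsd17b7 and in liver for Mvd. Scaling by library size alone or RLE factors between untreated organs, also chosen after seeing the data, left the number highest in liver at 21 and 24; library size alone turned the direction of Ebp (0.26 in place of -0.62, log2 lung over heart) and Scap (0.58 in place of -0.30).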
